A study of Saccharomyces cerevisiae with 8 samples.

Results

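The 6 genes described here take up, carry or save iron in budding yeast (Saccharomyces cerevisiae) and are known or reported targets of the iron regulator Aft1: FIT3, ENB1, FRE2, FRE3, TIS11 and MRS4. They were picked by symbol from the genes under Aft1 with earlier results of these data known, so counts over them are descriptions of a chosen set. Each had 1 feature on the array, so they make up 6 of the 3127 named genes measured.

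Cells lacking YAP1 (yap1d) were compared with wild type (WT) in 2 laboratory strain backgrounds, BY4742 (mating type alpha) and BY4741 (mating type a). All cultures were first grown in rich medium (YPD) up to an optical density of 0.5. Hydroxyurea, which blocks ribonucleotide reductase, was then present at 200 mM for 2 h. Every group therefore carried the drug, no culture without it was analysed here, and the values compare 2 genotypes under hydroxyurea. In each background, yap1d and WT RNA were hybridised together on 2 slides of a spotted array with the channels exchanged (slides 21 and 22 for BY4742, slides 19 and 20 for BY4741), and for every slide there were 2 columns, named fort and faible in the labels and taken here as 2 scans. The labels do not say whether both slides of a background had their own cultures, so a p-value from single slides may measure technical spread only. YAP1 itself was not analysed here, which leaves the deletion unchecked. A ratio within a slide gives no level, so the genes that each background lacks could not be checked as absent. Before turning, the MET17 ratio (a gene missing from BY4741) lay at percentiles 83.6 and 68.4 of named genes on the BY4742 slides, against 4.99 and 4.45 on the BY4741 slides. The LYS2 ratio (a gene missing from BY4742) lay at percentiles 24.4 and 30.0, against 76.3 and 70.7, so both genes separated the backgrounds. In cultures of whole cells, fewer cells of a kind and less RNA per cell cannot be told apart.

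Yeast takes up iron in a pair of ways. Ferric reductases of the plasma membrane (the FRE family) reduce iron so that the oxidase Fet3 and the permease Ftr1 can import it, and transporters such as Enb1 bring in iron bound to siderophores, which are iron-binding molecules made by other microbes. Mannoproteins of the cell wall (the FIT family) help to retain siderophore iron. When iron is scarce, Aft1 moves to the nucleus and activates these genes, together with TIS11 (also called CTH2), whose product promotes decay of mRNAs for iron-using proteins. It also activates MRS4, a carrier of iron into mitochondria.

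All values below are log2 ratios of yap1d over WT, centred on the median of their column. The direction is only likely: the labels give the strain in each channel but not which channel is on top of the ratio, and the sign was chosen to put TRX2 and TRR1, known targets of the activator Yap1, lower in yap1d. If it is wrong, every sign of a yap1d effect turns. Base 2 is assumed. A mean is given ± SD over the 2 backgrounds (n = 2). A gene passed where limma's Benjamini-Hochberg adjusted p was under 0.05. The adjustment ran over 6695 units, which are named genes with their features averaged and the remaining features.

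FIT3 (YOR383C), the cell wall mannoprotein gene, fell by 0.98 ± 0.66, which is 1.97-fold, and none of the other 5 genes passed. Thus 1 of the 6 genes passed, against 2.11% of all 3127 named genes. By direction, 1 was lower and none was higher, against 1.57% lower and 0.544% higher among all named genes (49 and 17 genes). The means of all 6 lay below 0, as did those of 1702 of all named genes (54.4%), and their median was -0.09 against -0.01 over all named genes. Beyond FIT3 no mean reached 0.366, the smallest size that passed among named genes. That of ENB1 came nearest and ranked 62 from the lowest of all named genes. ENB1, the gene of the enterobactin transporter, was at -0.30 ± 0.37, MRS4 at -0.098 ± 0.026, FRE2 at -0.083 ± 0.16, FRE3 at -0.056 ± 0.17 and TIS11 at -0.039 ± 0.40. FIT3 was the lowest of the 6 within each background, but the value of ENB1 in BY4742 (-0.56) lay just beyond that of FIT3 in BY4741 (-0.51). From ENB1 to TIS11, neighbours in the order differed by less than the larger of their 2 SDs between backgrounds.

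**Figure D1:**
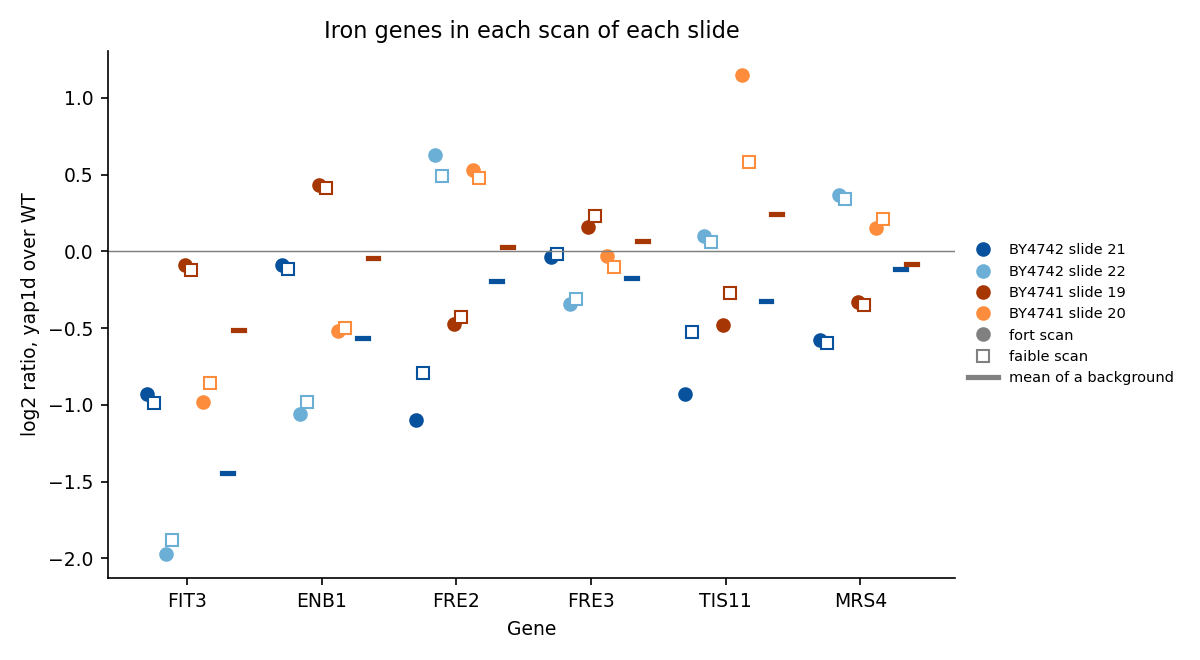
Log2 ratio of yap1d over WT (vertical axis) of each of the 6 genes (horizontal axis) in each scan of each slide, with the channel effect left in. Filled circles are fort scans, open squares faible scans, blue BY4742, brown and orange BY4741, and short bars the mean of each background; all 8 FIT3 points lie below 0, from -1.97 to -0.09.

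FIT3 was below 0 in all 8 columns. In BY4742 it read -0.93 in the fort and -0.985 in the faible scan of slide 21, and -1.97 and -1.88 on slide 22. In BY4741 it read -0.09 and -0.12 on slide 19, and -0.98 and -0.86 on slide 20. The columns of the 2 backgrounds overlapped, because slide 20 of BY4741 read as low as slide 21 of BY4742, while slide 22 was the lowest and slide 19 the nearest to 0.

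Part of this spread followed the channel. The channel effect is the part of a slide's ratio that stays with the channel when the strains are exchanged, given here in the direction of the deposited ratio, likely channel 1 over channel 2. For FIT3 it was 0.48 within BY4742 and 0.41 within BY4741. With the channel effect averaged over the 4 slides and removed, FIT3 stood at -1.40 and -1.48 on the BY4742 slides. On the BY4741 slides it stood at -0.55 and -0.47, so the backgrounds no longer overlapped. The removed effect was estimated from these same 4 slides, which ties the 4 values together. The close pairs therefore show only that the channel effects of the 2 backgrounds were alike, and not that slides agreed independently. The fall was 2.72-fold in BY4742 and 1.43-fold in BY4741.

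The fit of the 4 slides with a channel term gave FIT3 an effect of -0.98 ± 0.161 (SE, 95% interval -1.33 to -0.62), with an adjusted p of 0.0143 by limma. This fit counts the 2 slides of a background as separate samples, and the values of both backgrounds (-1.44 and -0.51) lay outside its interval. That fit called 1.54% of named genes, 1.18% lower, and FIT3 alone among the 6. In the main fit the adjusted p of FIT3 was 9.07e-17, a value that rests on the assumption of 1 SD of 0.153 for all genes, while the 2 FIT3 values had an SD of 0.66. The call was lost in 5 alternatives, all with a variance prior that let genes differ in spread: the adjusted p was 0.234 with columns scaled to 1 spread, 0.267 after quantile normalization, 0.999 on 4 slides without a channel term, 0.474 without slide 19 (mean -1.19) and 0.580 without slide 21 (mean -0.76). FIT3 was negative in each of these, and only 11 named genes had a lower mean in the main fit.

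ENB1 (YOL158C) imports the siderophore enterobactin in its iron-bound form. In BY4742 it read -0.09 and -0.115 in the fort and faible scans of slide 21, and -1.06 and -0.98 on slide 22. In BY4741 it read 0.43 and 0.41 on slide 19, and -0.52 and -0.50 on slide 20. The columns of the backgrounds overlapped, and within each the slide with yap1d in channel 2 was the lower. With the channel effect removed, ENB1 stood at -0.56 and -0.56 on the BY4742 slides, against -0.04 and -0.05 on the BY4741 slides. As for FIT3, these pairs are tied: they are close because the channel effects of the 2 backgrounds were alike (0.46 and 0.465).

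ENB1 did not pass in the main fit (adjusted p = 0.167, limma) or in the fit of 4 slides, which gave -0.30 ± 0.109 (SE, adjusted p = 0.373). The interval of that fit, not adjusted for the number of genes, ran from -0.54 to -0.06, so the missed threshold does not show that ENB1 was the same in both strains. As for FIT3, the values of both backgrounds (-0.56 and -0.045) lay outside this interval, which counts slides as separate samples. The mean of ENB1 was -0.43 without slide 20 and -0.43 without slide 19, fits that leave 1 slide of BY4741 and so lean towards BY4742. Without slide 21 or slide 22 of BY4742 it was -0.17 or -0.18, so these means partly restate the difference between backgrounds. The variance prior assumed 1 spread for all genes without slide 20 but let genes differ in spread without slide 19. No call is drawn from fits that leave 1 slide in a background.

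FRE2 (YKL220C) and FRE3 (YOR381W) encode ferric reductases that accept siderophore-bound iron. FRE2 read, as the mean of the 2 scans, -0.95 on slide 21 and 0.56 on slide 22 of BY4742, against -0.45 on slide 19 and 0.505 on slide 20 of BY4741. The sign followed the channel on all 4 slides, and FRE2 had the largest channel effect of the 6 genes (-0.62 ± 0.093, SE). FRE3 read -0.03 and -0.325 on the slides of BY4742, against 0.195 and -0.065 on those of BY4741. The values of FRE3 stayed nearer to 0 than those of any other of the 6 genes, and its channel effect of 0.14 ± 0.084 (SE) was the only one of the 6 that did not pass (adjusted p = 0.163).

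For both reductase genes the effect of yap1d was small. The 95% interval of the fit of 4 slides ran from -0.29 to 0.12 for FRE2 and from -0.24 to 0.13 for FRE3. FRE2 and FRE3 are close paralogs, so their features may share signal, which was not tested.

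TIS11 (YLR136C) had the widest spread between scans. In BY4742 it read -0.93 and -0.525 in the fort and faible scans of slide 21, and 0.10 and 0.06 on slide 22. In BY4741 it read -0.48 and -0.27 on slide 19, and 1.15 and 0.58 on slide 20. The scans of slide 20 were 0.57 apart, the largest gap between scans for any of the 6 genes on any slide. As for FRE2, the sign on each slide followed the channel. With the channel effect removed, TIS11 stood at -0.22 and -0.43 on the BY4742 slides, against 0.14 and 0.35 on the BY4741 slides. As for FIT3, these 4 values are tied by the removed effect. The mean of TIS11 near 0 averages background values of opposite sign, whose difference did not pass (adjusted p = 0.301, limma). The 95% interval of the mean over 4 slides was -0.30 to 0.22.

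MRS4 (YKR052C) varied least between backgrounds, at -0.12 in BY4742 and -0.08 in BY4741. Its slides read -0.59 and 0.355 in BY4742, against -0.34 and 0.18 in BY4741. As for FRE2, the sign on each slide followed the channel. The 95% interval of the fit of 4 slides was -0.28 to 0.08. Its size moved with a correction for place on the slide: MRS4 lay in a print block with a median of 0.17, and with block medians removed it was at -0.31 (adjusted p = 0.0624). Leaving out 1 slide gave -0.16 to -0.036.

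**Figure D2:**
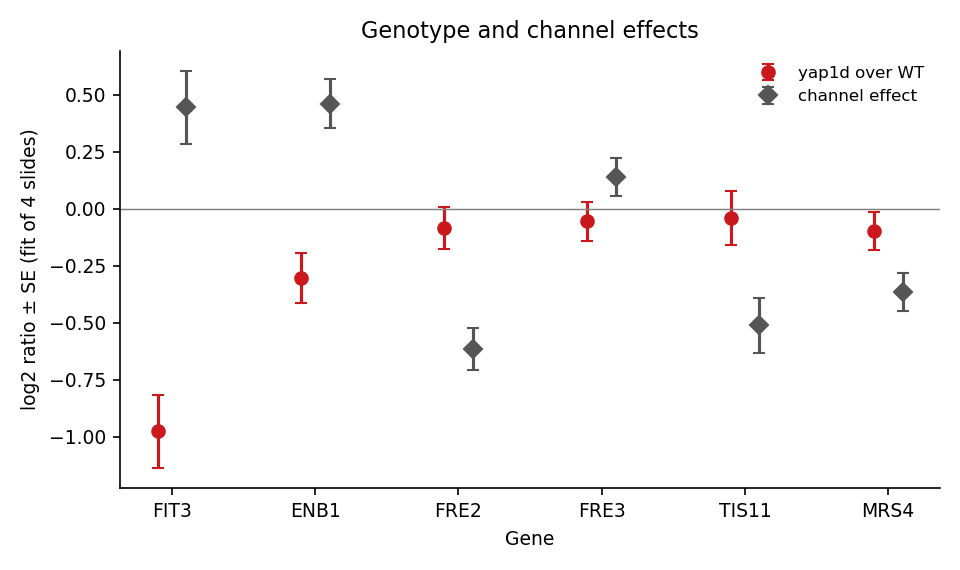
Effect of yap1d (red circles) and channel effect (grey diamonds) of the 6 genes in the fit of 4 slides, as log2 ratio ± SE on the vertical axis. The channel effect was larger in size than the effect of yap1d for 5 of the 6 genes, FIT3 being the exception (-0.98 against a channel effect of 0.45).

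The channel effect was larger in size than the effect of yap1d in 5 of the 6 genes, from 1.52 times for ENB1 to 13.0 times for TIS11. It passed limma's test in 5 of the 6 genes, against 62.8% of all named genes, so most named genes had one. FIT3 was the exception in size, with a channel effect 0.456 times its effect of yap1d. Within backgrounds the channel effects of ENB1 were close (0.46 in BY4742 and 0.465 in BY4741), while those of FRE2 (-0.75 and -0.48), TIS11 (-0.40 and -0.62) and MRS4 (-0.47 and -0.26) were further apart.

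All 6 genes had lower values in BY4742 than in BY4741. For MRS4 this rests on the centring, since its difference was -0.04 here and 0 with the values as deposited. Across all named genes 49.2% were lower in BY4742, and 17 of the 39 other measured iron genes were. FIT3 differed most, by -0.93 ± 0.133 (BY4742 minus BY4741, SE over 4 slides with a channel term, 95% interval -1.23 to -0.63), which was the fourth largest difference in size among named genes. TIS11 differed by -0.57 (interval -0.91 to -0.23) and ENB1 by -0.52 (interval -0.81 to -0.22). FRE3 (-0.24), FRE2 (-0.22) and MRS4 (-0.04) had intervals that spanned 0.

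No difference between backgrounds passed among the 6 genes: the adjusted p by limma, over all units, was 0.0791 for FIT3, 0.301 for TIS11 and ENB1, and 0.502 or more for the other 3. No named gene passed (0% called), although 395 (12.6%) had an unadjusted p under 0.05, among them 3 of the 6 iron genes. This fit has 1 residual degree of freedom and its calls moved with the settings. FIT3 passed with the faible scans alone (-0.94, adjusted p = 2.66e-08), with the values as deposited (-0.89, adjusted p = 0.000751) and with named genes only (adjusted p = 0.000238). With the fort scans alone it was at -0.915 with an adjusted p of 0.681. ENB1 also passed with the faible scans alone (-0.50, adjusted p = 0.0255). The difference of TIS11 was -0.75 with the fort scans alone and -0.35 with block medians removed, without passing.

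**Figure D3:**
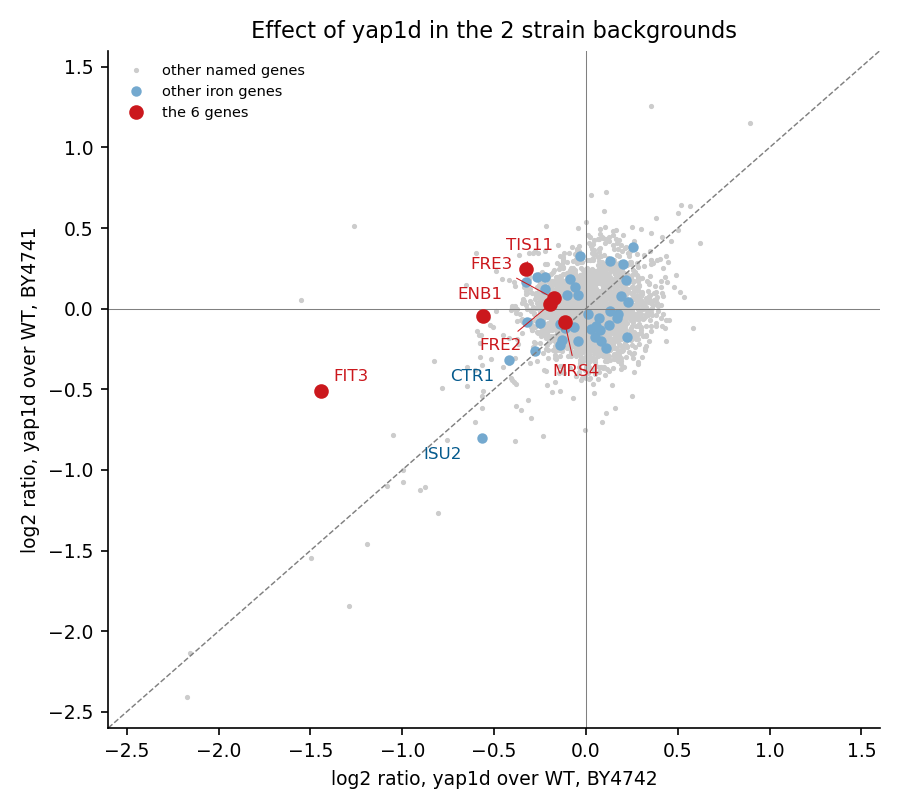
Log2 ratio of yap1d over WT in BY4742 (horizontal) and in BY4741 (vertical) for the 6 genes (red), 39 other iron genes (blue) and the remaining named genes (grey), each point 1 gene; the dashed line marks equal values. All 6 genes lie to the left of the dashed line, FIT3 furthest at -1.44 in BY4742 and -0.51 in BY4741.

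Of 60 further genes of iron handling that were listed by role, 39 were measured, and 2 of them fell: the copper transporter gene CTR1 and the iron-sulfur scaffold gene ISU2. None rose. That is 5.13% lower, against 1.57% of all named genes, and the median of the 39 was -0.03, against -0.01 over all named genes. In the fit of 4 slides 1 of the 39 was lower, against 1.18% of named genes. The lists by role were also chosen with earlier results of these data known, so shares over them describe chosen sets. ISU2, the mean of 2 features, was at -0.57 in BY4742 and -0.805 in BY4741 (-0.69 ± 0.170, adjusted p = 0.00162 in the fit of 4 slides). CTR1, which imports the copper that the oxidase Fet3 needs, was at -0.42 in BY4742 and -0.32 in BY4741, a mean of -0.37 ± 0.073. It passed in the main fit (adjusted p = 0.0390) and missed the threshold in the fit of 4 slides (adjusted p = 0.0546).

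Genes close in role to FIT3 did not pass. FIT2, a second cell wall mannoprotein gene, was at 0.17 in BY4742 and -0.035 in BY4741, a mean of 0.07 ± 0.15 that did not pass. Among ferric reductases, 4 further genes were measured, and all of their means were above 0 without passing. The largest were FRE5 at 0.32 ± 0.093 (adjusted p = 0.130) and FRE4 at 0.24 ± 0.050 (adjusted p = 0.488), while FRE6 was at 0.047 ± 0.19 and FRE8 at 0.0094 ± 0.091.

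Among reductive uptake and copper supply, 4 of 5 measured genes did not pass. The divalent metal transporter gene SMF3 was at 0.15 ± 0.25, the copper chaperone gene ATX1 at -0.067 ± 0.25, and the copper transporter gene CTR3 at -0.029 ± 0.15. FTH1, whose product exports vacuolar iron together with Fet5, was at -0.0094 ± 0.13. The siderophore transporter genes listed beside ENB1 were not analysed here, and neither were FET3 and FTR1.

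The regulators themselves did not pass, 6 of 6. AFT1, which encodes the activator, was at -0.06 in BY4742 and 0.13 in BY4741, a mean of 0.037 ± 0.14. Its paralog AFT2 was at -0.32 in BY4742 and -0.08 in BY4741, a mean of -0.20 ± 0.17 (adjusted p = 0.713). FRA1, part of the complex that holds Aft1 back when iron is sufficient, was at 0.20 ± 0.026, and CTH1, the paralog of TIS11, at 0.057 ± 0.10. BOL2, also of that complex, was at -0.026 ± 0.12, and YAP5, an iron-responsive factor of the Yap family, at 0.022 ± 0.089.

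Of 16 measured mRNAs reported as targets of Tis11, none passed, against 2.11% of all named genes. Of the 16, 12 lay below 0, against 54.4% of all named genes, and the median was -0.06. RLI1, an iron-sulfur protein of ribosome recycling, was lowest at -0.27 ± 0.011 (adjusted p = 0.319). WTM1 was highest at 0.21 ± 0.12. The glutamate synthase gene GLT1 was at -0.17 ± 0.11, and ISA1, of iron-sulfur assembly, was at -0.16 ± 0.047.

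Among the genes listed under mitochondrial and vacuolar iron, the 4 other than ISU2 did not pass, and all lay below 0. Of all named genes, 2.11% passed and 54.4% lay below 0. The count below 0 depends on the sorting by role, since SMF3 (0.15) and FTH1 (-0.0094) were listed under reductive uptake. MRS3, the paralog of MRS4, was at -0.049 ± 0.11, and the vacuolar iron importer gene CCC1 was at -0.12 ± 0.031. The metal transporter genes SMF1 and COT1 were at -0.18 ± 0.061 and -0.036 ± 0.33. The other reported Aft1 targets VHT1, a biotin transporter gene, and PCL5, a cyclin gene, were at 0.023 ± 0.28 and 0.056 ± 0.16.

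**Figure D4:**
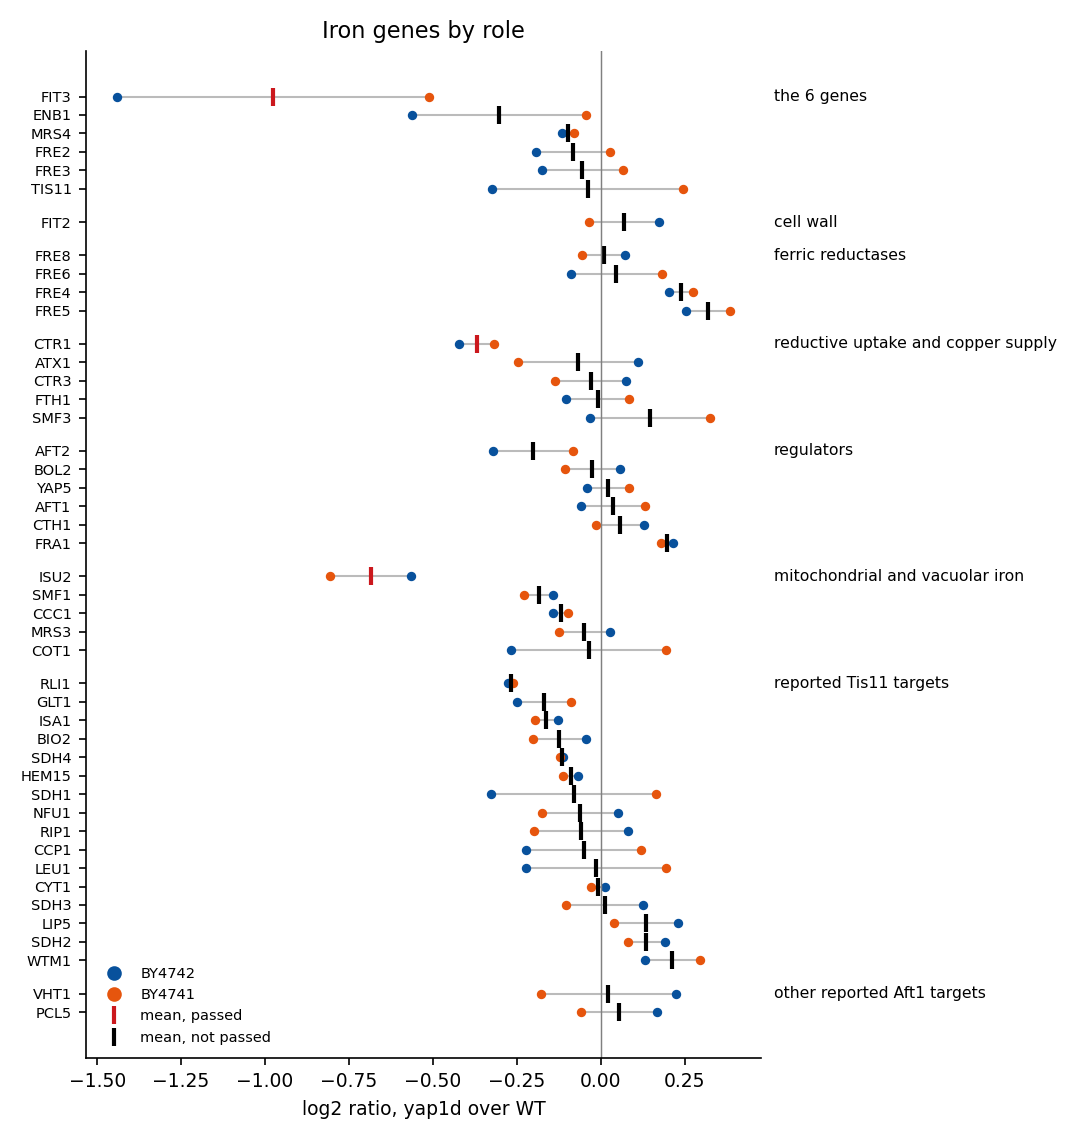
Log2 ratio of yap1d over WT (horizontal axis) of the 6 genes and 39 other iron genes, grouped by role, with BY4742 in blue, BY4741 in orange and the mean as a vertical tick (red where the gene passed in the main fit). Red ticks stand at FIT3, CTR1 and ISU2, and all 4 other ferric reductase genes have their mean above 0.

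FIT3 lies among other iron genes on chromosome XV in the R64 reference. In that order FRE3, an unmeasured gene, FIT2, FIT3 and FRE5 follow each other, then YOR385W and PHR1. No measured gene beside FIT3 fell: FRE3 and FIT2 were at -0.056 and 0.07, and FRE5, YOR385W and PHR1 were at 0.32, 0.19 and 0.25, none of which passed. In BY4742, where FIT3 was at -1.44, FIT2 was at 0.17 and FRE5 at 0.25. The FIT2 value carries the limit given above, since its channel effect was -0.97. The genes beside ENB1, CSS3 and IMA2, were at -0.12 and -0.13 and did not pass either.

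**Figure D5:**
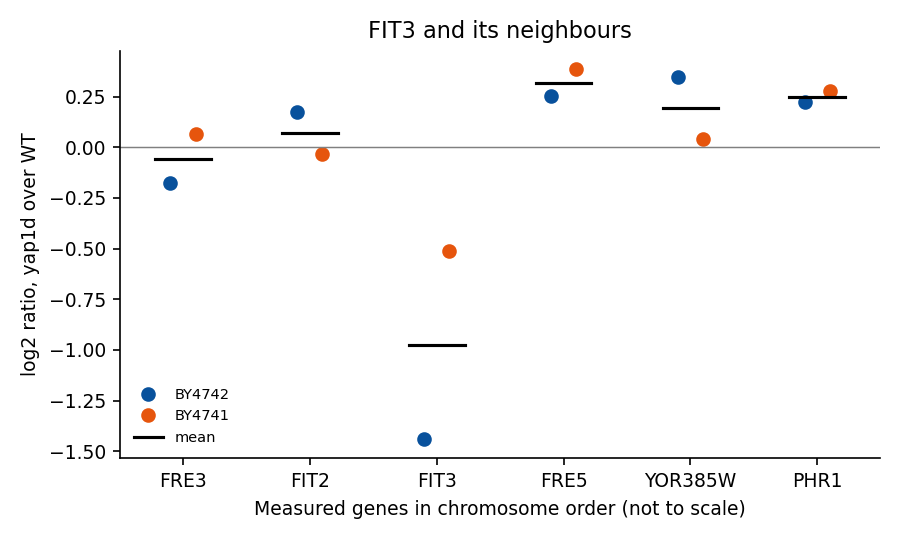
Log2 ratio of yap1d over WT (vertical axis) of FIT3 and the measured genes beside it in chromosome order (horizontal axis), with BY4742 in blue, BY4741 in orange and the mean as a bar. FIT3 is at -0.98, and the 5 other genes lie between -0.06 and 0.32.

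The place on the slide was also read. The 8 spots around FIT3 ranged from -0.25 to 0.19 (median -0.04), so none of them came near its value. With the median of each print block removed FIT3 stood at -0.96. ENB1 was the only one of the 6 with fewer than 8 spots around it (5, median 0.05).

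The 3 named genes most like FIT3 over the 4 slides, by Euclidean distance after removal of the channel effect, were the multidrug transporter gene PDR5 (distance 0.676), the acid phosphatase gene PHO5 (0.908) and its neighbour and paralog PHO3 (0.930). PDR5 was at -1.05 in BY4742 and -0.78 in BY4741. PHO5 was at -0.83 and -0.32, and PHO3 at -0.79 and -0.49, so that all 3 were lower in BY4742, but none reached the -1.44 of FIT3 there. The 3 genes were picked by these same slide values, so their shared fall and lower values in BY4742 follow largely from that choice. PHO5 and PHO3 are close in sequence and may share signal, which was not tested.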

How the data were processed

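The members and gene lists were chosen with earlier results of these data known. The deposited log ratios compare the channels of 1 slide and were read as log2, an assumption, since the labels leave the base open; with natural logarithms each fold would differ and each test stay. The authors' image analysis, background correction and normalization are not given in the sources used here. This deposited table holds 6912 features in 8 columns, without missing values or columns of other samples. The array annotation gave gene names, which were brought up to date with the R64 table by gene identifier: 3344 features had 1 symbol (3343 matched), 387 several and 3181 none here. Averaging features of a gene left 6695 units, 3127 of them named genes.

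Each column was centred on its median, scans were averaged, ratios were put in the direction yap1d over WT using the labelled channels, and both slides per background were averaged. The main test was an intercept over the 2 backgrounds with lmFit and eBayes (limma 3.58.1, R 4.3.3), whose variance prior had infinite degrees of freedom. The companion fits used 4 slides with a channel term, and for the difference between backgrounds a further term. The number of arrays limits the precision. Scripts were tested on simulated data. The genes named are the 6, every other listed iron gene that passed, up to 4 per list with the largest size of mean, and the 3 genes most like FIT3; a few list members beyond these were named after their values were seen. The planned motif search and protein comparison were not run, and no sequence is given. Figures were drawn with matplotlib 3.10.9.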

Additional observations from a re-analysis of the deposited data

How the results depend on the processing

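FIT3 stayed below 0 in the 16 alternatives that turned the columns, from -1.23 to -0.73, and passed in 11 of them. It lost the call with columns scaled to 1 spread (-0.94), after quantile normalization (-0.96) and on 4 turned slides without a channel term (-0.98). Leaving out 1 slide gave -1.23 to -0.73. Of the 6 genes, 0 passed in those 3 settings, 0 to 2 with 1 slide left out and 5 with columns not turned, which measures the channel. The named genes that passed numbered 66 (49 lower, 17 higher), 18 with columns scaled, 17 (15 and 2) after quantile normalization, 70 (36 and 34) as deposited, 0 on 4 turned slides without a channel term, 2127 with columns not turned and 3 to 95 with 1 slide left out. The scaled, quantile and 4-slide fits had a finite variance prior. Columns not turned gave FIT3 0.45, ENB1 0.46 and FRE3 0.14. With 1 slide left out ENB1 ran from -0.43 to -0.17, FRE2 ran from -0.21 to 0.041, FRE3 from -0.12 to 0.0094 and TIS11 from -0.24 to 0.16, above 0 without slide 21 (FRE2 and TIS11) or slide 22 (FRE3 and TIS11). As deposited TIS11 was at 0.016, and with block medians removed FRE3 was at 0.027; none of these values above 0 passed, and the cause was not tested. The difference between backgrounds was called for 0 genes, and for 73 with the faible scans, 15 as deposited, 16 with named genes only, 1 with each feature on its own and 1 without units reading 0. FRE3 reads 0 in 1 column and has no value in that last setting. No paired analysis was possible because each value is already a ratio within 1 slide and the labels give no replicate number shared between backgrounds.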
